A study of Mus musculus with 6 samples.

Results

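The phagocyte NADPH oxidase and the superoxide dismutases are described here by 8 genes, Cybb, Cyba, Ncf1, Ncf4, Rac2, Sod1, Sod2 and Sod3. They were measured in RAW 264.7 cells, a mouse macrophage-like line (spelled RAW 264.4 in 1 place of each sample's description). The cells were cultured for 16 hours with bacterial lipopolysaccharide (LPS) and LPS-binding protein, or untreated. Genes were taken by symbol from probes that the platform annotation assigns to a single gene. All 8 were found among the 10698 genes so named, on 10 probes, and 7 of them had a ratio on every array. In the 7, 4 genes rose after treatment (Sod2, Rac2, Ncf1 and Ncf4) and 1 fell (Sod1). Over all 9607 genes tested, 16.8% rose and 14.6% fell by the same rule, an adjusted p under 0.05 in limma. The mitochondrial dismutase Sod2 rose most, to 2.24-fold the untreated level. The cytosolic dismutase Sod1 fell to 0.825 of that level, a call lost when any 1 set was left out. The calls of Ncf4 and Ncf1 were lost under some alternative settings given below, those of Sod2 and Rac2 under none. Cybb, the catalytic subunit, gave a ratio in 1 set of arrays alone, where it stood at 3.86-fold.

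Treated cells received LPS at 100 ng/ml together with LPS-binding protein at 100 pM, which loads LPS onto its receptors, and both treated and untreated cells were cultured for 16 hours. Total RNA of the 2 conditions was labelled with different dyes and hybridised to the same array, on 6 arrays. Treated RNA carried Cy5 on 3 arrays and Cy3 on the other 3, with sets numbered 1 to 3 in each orientation. All RNA came from a single established line, and the labels do not say whether the sets were grown separately, so p-values reflect scatter among these arrays that could be technical. A ratio compares RNA from whole cultures, in which fewer cells expressing a gene and less RNA per cell cannot be told apart. Values are log2 ratios of treated over untreated, and a set's value is the mean of its pair of orientations. They take the deposited ratio as Cy5 over Cy3, a direction that is likely rather than stated: Cy5 is named as the test channel in the labels, and the LPS-induced gene Il6 came out at 5.11 ± 0.47 with it (SD, n = 3 sets).

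The phagocyte oxidase moves electrons from NADPH across the membrane onto oxygen and makes superoxide, the starting point of the respiratory burst that kills ingested microbes. Its membrane core is a heterodimer of gp91phox (Cybb) and p22phox (Cyba). In resting cells proteins such as p47phox (Ncf1) and p40phox (Ncf4) wait in the cytosol, and they join the core together with a Rac GTPase when the cell is stimulated. Superoxide dismutases convert superoxide to hydrogen peroxide, Sod1 in the cytosol, Sod2 in the mitochondrial matrix and Sod3 outside the cell. Sod1 and Sod3 use copper and zinc, and Sod2 uses manganese.

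Ratios carry no expression level, so the labelled cell type could not be checked by levels. Of 10 macrophage markers 8 had a ratio on all arrays. Among them 6 rose (Cd68, Adgre1, Lyz2, Fcgr1, Ptprc and Spi1, from 0.34 to 2.13) and Csf1r fell (-0.27), beside 16.8% and 14.6% of all genes. Genes listed as markers of neutrophils, another cell with an abundant oxidase, were Mpo, Elane, Ly6g, S100a8 and S100a9. These gave 5 measured and 0 called in limma, with 1 (S100a8) at an unadjusted p under 0.05, and lay between -0.18 and 0.15. Of 5 measured lymphocyte markers Cd4 (0.31) and Cd79a (0.35) rose, and of 6 epithelial or fibroblast markers 0 were called, with 0 at an unadjusted p under 0.05. Beside the shares of all genes, 0 calls in lists of 5 or 6 genes say little about these cell types. The part of any other cell type in the results was not tested.

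**Figure D1:**
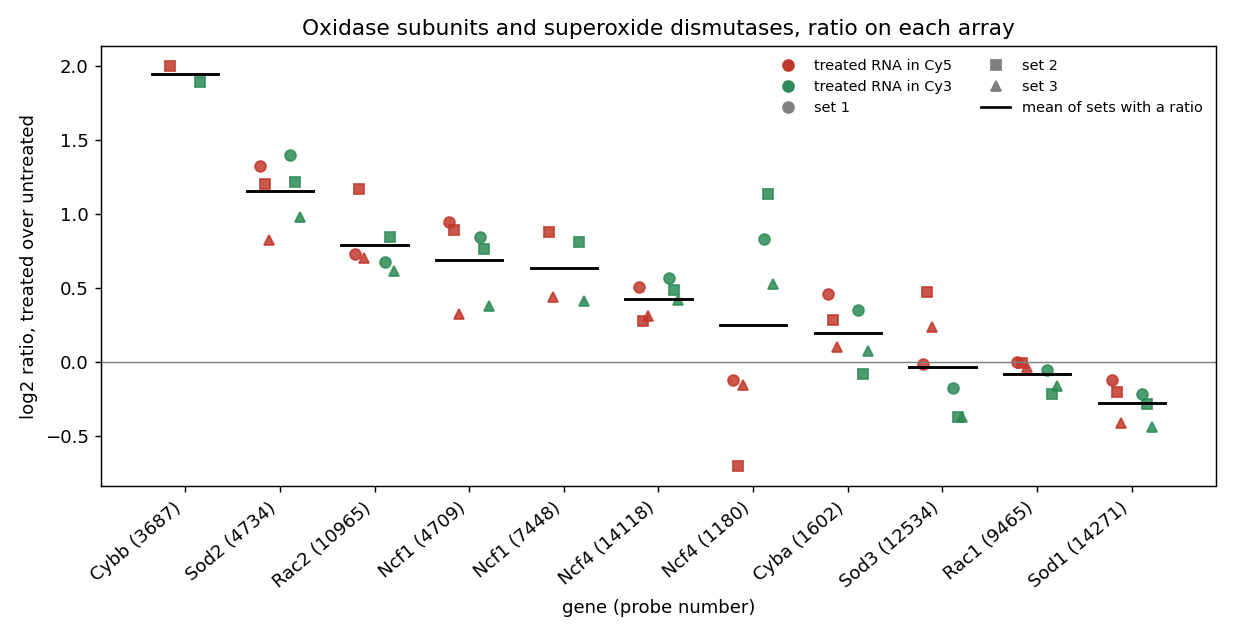
Each point is the log2 ratio of treated over untreated on 1 array, for each probe of the 8 genes and of Rac1, with colour for the dye of the treated RNA, shape for the set and a bar for the mean of the sets with a ratio. Sod2, Rac2 and Ncf1 stand above 0 on every array with a ratio, Sod1 below 0 on all 6, and Ncf4 probe 1180 splits by dye.

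The membrane core was measured unevenly. Cybb, the flavocytochrome that carries the electrons, has a single probe, and it had a ratio on the arrays of set 2 only. There it read 2.00 with treated RNA in Cy5 and 1.89 with treated RNA in Cy3, a mean of 1.95. Both dye orientations were thus high in treated cells, and the other 4 arrays gave no ratio. With 1 set the value has no replicate check and no test. A ratio confined to both arrays of a single set was seen in 82 of 13738 singly annotated probes. Taking the missing ratios as 1, which sets the other sets to no change, lowers the mean of Cybb to 0.65 and gives an adjusted p of 0.457 in limma.

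Cyba, the partner that stabilises gp91phox and docks the cytosolic subunits, read 0.46, 0.29 and 0.10 in sets 1 to 3 with treated RNA in Cy5. With treated RNA in Cy3 it read 0.35, -0.083 and 0.077. Set 1 was the high one in both orientations, and 5 of 6 arrays were above 0. The mean of 0.20 ± 0.18 (SD, n = 3) did not pass (adjusted p = 0.143 in limma). Its 95% confidence interval ran from -0.011 to 0.41, or from 0.992-fold to 1.33-fold.

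Ncf1 and Ncf4, the cytosolic organiser and its p40phox companion, rose. Ncf1 probe 4709 read 0.95, 0.90 and 0.33 in sets 1 to 3 with treated RNA in Cy5 and 0.85, 0.76 and 0.38 with treated RNA in Cy3. Sets 1 and 2 lay close together and set 3 well below them, yet all 6 arrays were above 0. The mean was 0.69 ± 0.30 (SD, n = 3), a 1.62-fold rise (adjusted p = 0.00434 in limma). Its other probe, 7448, had no ratio in set 1 and read 0.85 in set 2 and 0.43 in set 3, against 0.83 and 0.35 for probe 4709 in those sets. The 2 probes thus gave the same order of sets, and probe 7448 also passed (0.64, adjusted p = 0.0138) when probes measured in at least 2 sets entered the fit. With missing ratios taken as 1 the gene lost its call (0.56, adjusted p = 0.0585).

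Ncf4 rose by a smaller amount, to 1.27-fold (0.34 ± 0.092, SD, n = 3, adjusted p = 0.0126). Its 2 probes passed singly, at 0.43 for probe 14118 (adjusted p = 0.00584) and 0.25 for probe 1180 (adjusted p = 0.0443), where 16.9% of all probes rose. They differed in how they behaved with the dyes. Probe 14118 read 0.51, 0.28 and 0.31 with treated RNA in Cy5 and 0.57, 0.48 and 0.42 with treated RNA in Cy3. Probe 1180 read -0.12, -0.71 and -0.15 with treated RNA in Cy5 and 0.83, 1.14 and 0.53 with treated RNA in Cy3. Every array of probe 14118 was above 0, while the orientations of probe 1180 did not overlap and had opposite signs. The value of the gene averages both probes, which had means of 0.37 (14118) and -0.33 (1180) with treated RNA in Cy5. With treated RNA in Cy5 alone Ncf4 was thus at 0.019 and not called (adjusted p = 0.928 in limma). With treated RNA in Cy3 alone it was at 0.66. Without set 1 it stood at 0.29 and lost its call too (adjusted p = 0.0857).

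**Figure D2:**
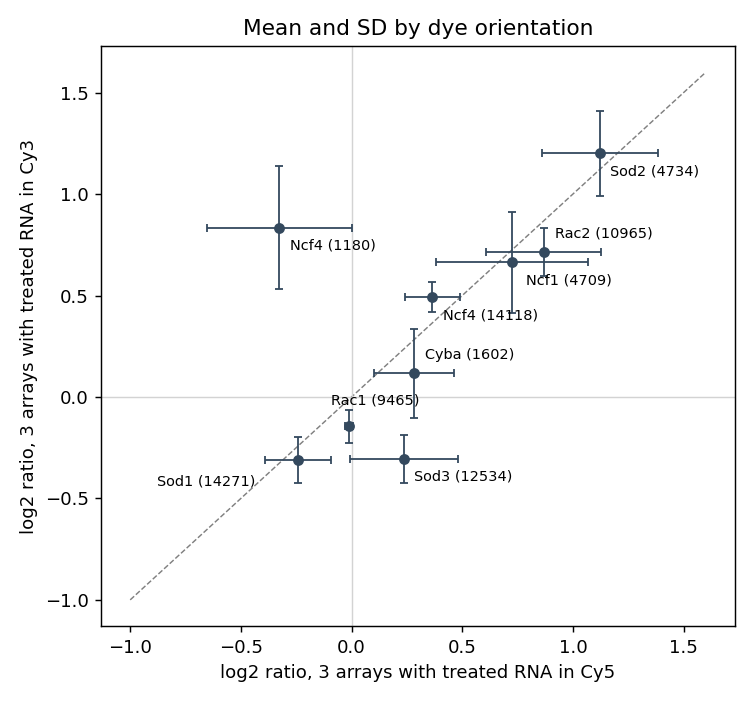
Mean log2 ratio of each probe over the 3 arrays with treated RNA in Cy5 (x axis) against the 3 with treated RNA in Cy3 (y axis), with bars for the SD over arrays and a dashed line of equality. Probe 1180 of Ncf4 (-0.33 and 0.83) and the probe of Sod3 (0.23 and -0.31) lie off the line with opposite signs, and that of Ncf1 (0.72 and 0.66) lies near it.

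Rac2, the Rac GTPase of blood cells that switches the assembled oxidase on, read 0.73, 1.17 and 0.70 with treated RNA in Cy5 in sets 1 to 3. With treated RNA in Cy3 it read 0.68, 0.85 and 0.62. Set 2 was highest in both orientations, and the lowest array was still at 0.62. The mean of 0.79 ± 0.19 (SD, n = 3) was a 1.73-fold rise (adjusted p = 0.00085 in limma). Rac1, the widely expressed relative that serves the same role in monocytes and many other cells, is no member of the gene set and read from -0.22 to 0.0040 over the 6 arrays. Its mean was -0.078 ± 0.045 (SD, n = 3, adjusted p = 0.478), so the ratio of Rac2 exceeded that of Rac1 in each set, by 0.73, 1.12 and 0.76. The 2 genes are similar in sequence, and cross-hybridisation of their probes was not tested.

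The 3 dismutases went different ways. Sod2, the manganese enzyme of mitochondria, read 1.33, 1.21 and 0.83 in sets 1 to 3 with treated RNA in Cy5 and 1.40, 1.22 and 0.98 with treated RNA in Cy3. The orientations matched within each set, and set 3 was the low one. The mean was 1.16 ± 0.24 (SD, n = 3), with a 95% confidence interval of 1.89-fold to 2.64-fold (adjusted p = 0.000258 in limma). Sod2 was the only one of the 7 tested members at or above 2-fold, a size reached by 353 of 9607 genes that rose, and ranked 287th from the top among all genes tested.

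Sod1, the copper and zinc enzyme of the cytosol, read -0.12, -0.20 and -0.41 with treated RNA in Cy5 and -0.22, -0.28 and -0.44 with treated RNA in Cy3. All 6 arrays were below 0, and set 3 was lowest in both orientations. The mean was -0.28 ± 0.13 (SD, n = 3, adjusted p = 0.0366). The fall was small and its call did not survive the loss of any set: without set 1, 2 or 3 it stood at -0.33, -0.30 and -0.20 (adjusted p = 0.0693, 0.0955 and 0.153). It was also lost on the 3 arrays with Cy5 on the treated RNA (adjusted p = 0.156). With the missing ratios of all genes taken as 1 it was lost too (adjusted p = 0.0796). Sod1 itself had no missing ratio and stayed at -0.28 there.

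Sod3, the secreted copper and zinc enzyme, read -0.011, 0.48 and 0.24 with treated RNA in Cy5 and -0.17, -0.37 and -0.37 with treated RNA in Cy3. All 3 arrays with treated RNA in Cy3 lay below 0 and below every array with treated RNA in Cy5, and the mean of -0.035 ± 0.077 (SD, n = 3) did not pass (adjusted p = 0.780). With treated RNA in Cy3 alone Sod3 was called lower (-0.31, adjusted p = 0.0379), and with treated RNA in Cy5 alone it was at 0.23 (adjusted p = 0.221). The interval of the mean over both orientations ran from 0.867-fold to 1.10-fold. Within each set the ratio of Sod2 exceeded that of Sod1, by 1.53, 1.46 and 1.33 (mean 1.44 ± 0.10, SD, n = 3), and that of Sod3, by 1.46, 1.16 and 0.97. These are differences between responses, since levels of different probes cannot be compared.

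Promoter sequences for 5 of the 8 genes were matched by symbol in RefSeq, build GRCm38.p6, each from 250 bases before to 50 after the annotated start. Sod2 and Sod1 are shown because they were called in opposite directions, the call of Sod1 being the less stable. Both are given 5′ to 3′ along the gene's strand, Sod2 at chr17:13007589-13007888, plus strand, and Sod1 at chr16:90220512-90220811, plus strand. Capitals mark matches, on either strand, to any of 8 motifs. These are the kappaB motif, given by name, GAAANNGAA for interferon regulatory factors (IRF) and TTCNNNGAA for STAT factors (GAS). The others are GAGGAA for the macrophage factor PU.1, GGGCGG for the general factor SP1, TGANTCA for the Fos and Jun pair AP-1, the core promoter box TATAAA, called TATA here, and TGACNNNGC for the antioxidant element.
Sod2 promoter: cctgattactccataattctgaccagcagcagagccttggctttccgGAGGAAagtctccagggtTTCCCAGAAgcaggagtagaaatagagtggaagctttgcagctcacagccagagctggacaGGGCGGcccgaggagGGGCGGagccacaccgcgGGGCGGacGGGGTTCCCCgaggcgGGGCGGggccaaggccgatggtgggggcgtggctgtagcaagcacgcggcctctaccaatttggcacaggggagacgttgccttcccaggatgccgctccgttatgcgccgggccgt
Sod1 promoter: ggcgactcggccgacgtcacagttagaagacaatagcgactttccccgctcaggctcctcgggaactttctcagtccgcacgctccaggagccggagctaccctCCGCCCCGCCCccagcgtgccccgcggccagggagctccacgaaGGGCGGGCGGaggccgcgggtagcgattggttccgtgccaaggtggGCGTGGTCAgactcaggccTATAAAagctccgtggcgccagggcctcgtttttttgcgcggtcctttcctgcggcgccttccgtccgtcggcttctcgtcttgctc

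The Sod2 window held 1 kappaB match beginning at -83 from the start, between SP1 matches at -91 and -67, and further SP1 matches at -124 and -109. It also held a GAS match at -185 and a PU.1 match at -203. The Sod1 window held 4 SP1 matches (at -146, -141, -102 and -98, overlapping in pairs), a TATA match at -37 and an antioxidant match at -56. Of 32851 windows of the same length in the table, 8.46% held a kappaB match, 8.3% a GAS match, 28.3% a PU.1 match, 35.7% an SP1 match, 13.6% a TATA match and 12.4% an antioxidant match. The SP1 matches are common to both windows, and the kappaB, GAS and PU.1 matches were in the Sod2 window and not in that of Sod1.

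Ncf1 and Cybb are shown as the oxidase subunits with the highest ratios among those with a window, Ncf1 at chr5:134229576-134229875, minus strand, and Cybb at chrX:9469275-9469574, minus strand, with capitals as above.
Ncf1 promoter: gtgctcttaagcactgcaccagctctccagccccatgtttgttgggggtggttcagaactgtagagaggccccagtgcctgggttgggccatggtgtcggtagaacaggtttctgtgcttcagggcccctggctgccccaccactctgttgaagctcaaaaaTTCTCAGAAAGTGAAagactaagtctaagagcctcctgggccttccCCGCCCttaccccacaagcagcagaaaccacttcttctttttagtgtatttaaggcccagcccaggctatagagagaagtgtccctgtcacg
Cybb promoter: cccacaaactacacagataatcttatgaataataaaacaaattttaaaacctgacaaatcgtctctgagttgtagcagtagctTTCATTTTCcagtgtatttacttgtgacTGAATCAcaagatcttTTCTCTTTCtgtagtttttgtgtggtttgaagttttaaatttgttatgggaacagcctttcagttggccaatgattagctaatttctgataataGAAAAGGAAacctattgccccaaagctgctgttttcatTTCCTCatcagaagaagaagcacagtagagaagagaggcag

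The Ncf1 window held a GAS match at -88 that overlaps an IRF match at -82, and an SP1 match at -42. The Cybb window held 3 IRF matches, at -167, -123 and -29, an AP-1 match at -139 and a PU.1 match starting at 10 bases into the transcript. IRF matches occurred in 8.56% of all windows and AP-1 matches in 7.81%. Cyba had 2 SP1 matches in its window and 0 matches to the other motifs, and Ncf4, Rac2 and Sod3 had no window. A relation between matches and ratios was not tested. Such matches are runs of letters, and binding was not measured.

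Ordered by ratio, the measured members were Sod2 (1.16), Rac2 (0.79), Ncf1 (0.69), Ncf4 (0.34), Cyba (0.20), Sod3 (-0.035) and Sod1 (-0.28). Neighbours overlapped in their ranges over sets down to Cyba. Sod2 exceeded Rac2 by 0.37 on average and in every set, the smallest gap being 0.21, while Rac2 and Ncf1 changed places between sets (mean gap 0.098, SD 0.26). The ranges of Cyba and Sod3 did not overlap. The median over the 7 members was 0.34, against -0.0076 over all 9607 genes, and the median absolute ratio was 0.34 against 0.14. Of the 7 members, 4 had one sign on all 6 arrays (Sod2, Rac2, Ncf1 and Sod1), as did 35.6% of all genes. In 6 of the 7 members the lowest set was set 3, which was the lowest set in 32.9% of all genes and in 32.1% of those that rose. Dye effects were called for 0 of the 7 members in limma, where 0.364% of all genes and 0.335% of all probes were called, with 2 members at an unadjusted p under 0.05 (Ncf4 and Sod3).

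**Figure D3:**
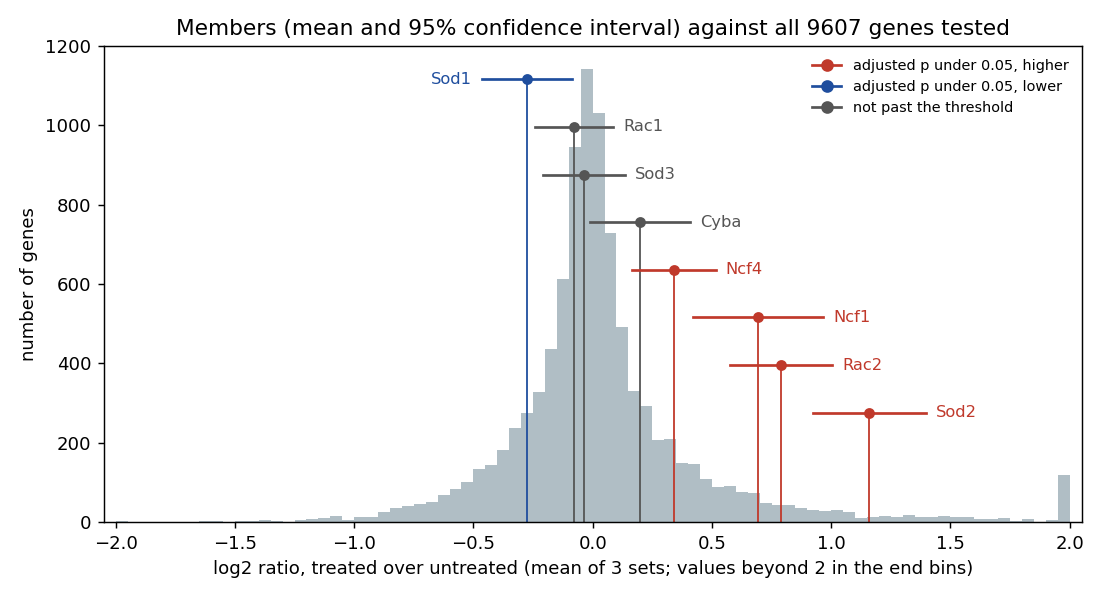
The grey histogram counts the 9607 genes tested by log2 ratio (mean of 3 sets), and each labelled point and bar is a member, or Rac1, with its mean and 95% confidence interval, at heights chosen for legibility. Sod2 (1.16), Rac2 (0.79) and Ncf1 (0.69) lie in the right tail, and the intervals of Cyba and Sod3 include 0.

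Other genes of the pathway were read from 5 further lists. Regulators of oxidase assembly gave 4 of 20 measured genes up and 2 down, beside 16.8% and 14.6% of all genes, with a median of 0.092. Vav1, an exchange factor that activates Rac proteins, rose to 1.55-fold (0.63 ± 0.036, adjusted p = 0.000691), with its 2 probes at 0.63 and 0.64. Prkca, a protein kinase C, rose by 0.55 ± 0.45 (adjusted p = 0.0348), a value of 0.34 without set 3. Its call was lost without set 2 (adjusted p = 0.126), with treated RNA in Cy5 alone (0.0577), with missing ratios taken as 1 (0.17), under robust variance moderation (0.0751) and with arrays scaled to equal spread (0.0615). Akt1 (-0.43 ± 0.25, adjusted p = 0.0184) and Mapk14 (-0.34 ± 0.082, adjusted p = 0.012), kinases that can phosphorylate p47phox, fell, and without set 2 neither passed (adjusted p = 0.085 and 0.0602), nor did Akt1 with missing ratios taken as 1 (adjusted p = 0.0953). Without set 2 the list gave 2 up and 0 down. Among other NADPH oxidases and their subunits 2 genes were measured, and Noxo1, the p47phox-like organiser of the Nox1 enzyme, fell by 0.47 on the log2 scale (SD 0.24, adjusted p = 0.0118). It did not pass when missing ratios were taken as 1 (adjusted p = 0.0754).

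Of 11 measured genes for hydrogen peroxide removal 3 rose and 0 fell in limma, beside 16.8% and 14.6% of all genes. At an unadjusted p under 0.05 1 was lower, and the median of the list was 0.024. Srxn1, which repairs overoxidised peroxiredoxins, rose by 0.34 ± 0.15 (adjusted p = 0.0203), and catalase (Cat) by 0.34 ± 0.13 (adjusted p = 0.0173). Txnrd1, a thioredoxin reductase, rose by 0.25 ± 0.027 (adjusted p = 0.0316), and lost its call when any 1 set was left out (adjusted p = 0.0639 to 0.149), with treated RNA in Cy3 alone (0.202), and with the median or the least variable of its probes (0.05001 and 0.0651). Srxn1 also lost its call without set 1 (adjusted p = 0.123) and Cat without set 2 (adjusted p = 0.0862), which left 1 gene up in each case. With treated RNA in Cy5 alone 0 of the 3 passed (adjusted p = 0.171 for Srxn1, 0.142 for Cat and 0.0507 for Txnrd1), and with missing ratios taken as 1 only Txnrd1 did (adjusted p = 0.068 for Srxn1 and 0.0541 for Cat). Gpx1, the main cytosolic glutathione peroxidase, was at -0.18 ± 0.28 (adjusted p = 0.307).

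A list for the supply of copper and manganese, metals used by dismutases, also holds the copper pump Atp7b and had 10 measured genes. Of these 5 rose and 2 fell, beside 16.8% and 14.6% of all genes. The median of the list was 0.28. Slc31a2, a copper transporter of internal membranes, read 1.90, 2.19 and 1.91 in sets 1 to 3 and rose by 2.00 ± 0.17 (adjusted p = 1.21e-05). Slc11a1, a metal transporter of the phagosome that carries manganese and iron, rose 3.07-fold (1.62 ± 0.25, adjusted p = 6.92e-05). Atox1, a copper chaperone, fell (-0.30 ± 0.026, adjusted p = 0.0153), and so did the copper pump Atp7b (-0.28 ± 0.17, adjusted p = 0.0454). Both falls were lost without set 1 (adjusted p = 0.0791 and 0.142), where 0 genes of the list fell, and with treated RNA in Cy3 alone (adjusted p = 0.0978 and 0.106), again with 0 down. The fall of Atp7b was also lost without set 3 (adjusted p = 0.181), with treated RNA in Cy5 alone, with missing ratios taken as 1, and under another scaling or centring of the arrays (adjusted p = 0.0501 to 0.11). Ccs, the chaperone that loads copper into Sod1, was at 0.078 ± 0.075 (adjusted p = 0.491).

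A list of transcription factors known to act on these genes, which also holds Keap1, the adaptor that restrains NRF2 (0.10, adjusted p = 0.351), had 14 measured genes. Of these 8 rose and 0 fell in limma, beside 16.8% and 14.6% of all genes. At an unadjusted p under 0.05 1 was lower, and the median of the list was 0.48. Cebpb, a factor of inflammatory macrophages, rose 2.02-fold (1.02 ± 0.22, adjusted p = 0.000389), with its 2 probes at 1.03 and 1.01. Hif1a rose by 0.95 ± 0.74 (adjusted p = 0.0236), a value of 0.53 without set 3, and its call ended under robust variance moderation (adjusted p = 0.187) and with missing ratios taken as 1 (adjusted p = 0.155). Irf8 and Spi1 (PU.1), myeloid factors known to act on oxidase genes, rose by 0.52 ± 0.086 and 0.44 ± 0.14. The NF-kappaB subunits Nfkb2 (0.81), Relb (0.70) and Rel (0.61) rose and Rela was at -0.12 (adjusted p = 0.358). Nfe2l2, the antioxidant regulator NRF2, was at -0.19 ± 0.21 (adjusted p = 0.193).

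**Figure D4:**
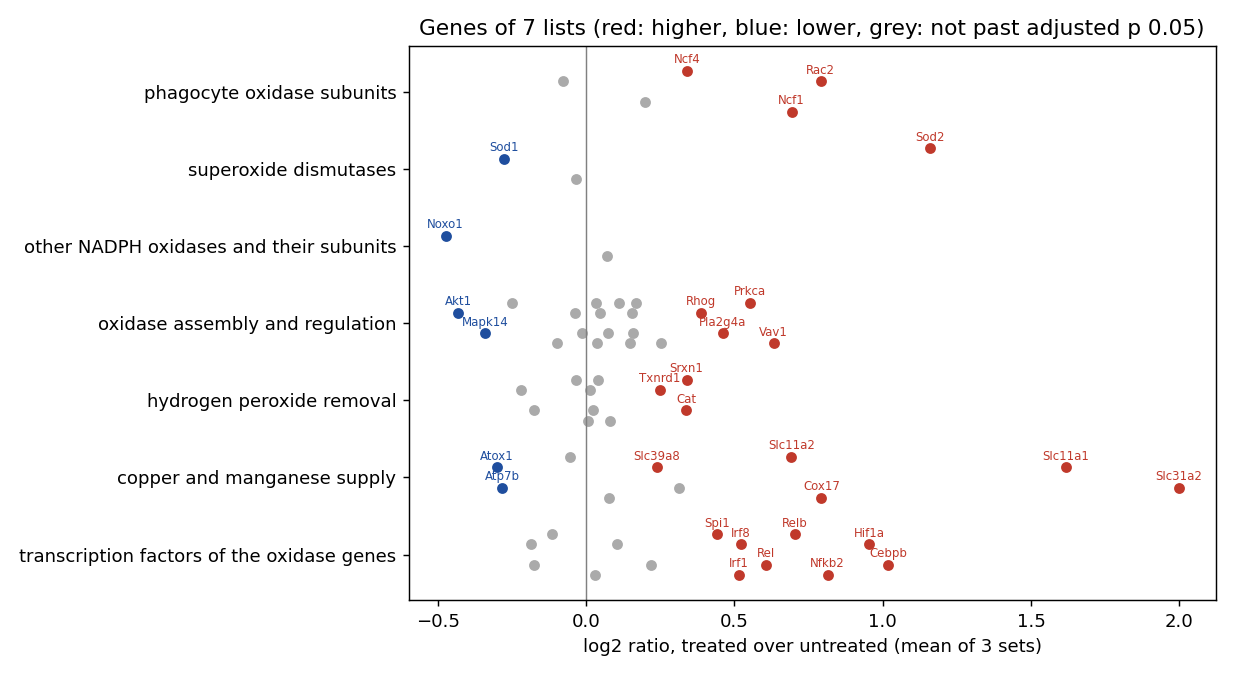
Each point is the log2 ratio of 1 gene (mean of 3 sets), by list, in red where it rose, blue where it fell and grey where it did not pass an adjusted p of 0.05, with changed genes named. The transcription factor list (8 of 14 up) and the metal supply list (5 of 10 up) hold most of the red points outside the members. Of all genes 16.8% rose.

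Ncf4 and Rac2 lie on chromosome 15 with 10 protein-coding genes between them in the GRCm38.p6 gene order. Of those, 7 were measured, and 0 passed in limma, with 0 at an unadjusted p under 0.05. Over all genes tested 16.8% rose and 14.6% fell, so 0 of 7 says little about the interval. Ratios of the 7 ran from -0.12 (Tst) to 0.16 (Tex33), below Ncf4 (0.34) and Rac2 (0.79). Genes closest to each member were found by the root mean square difference of the 6 log2 ratios. Sod2 was closest to Sgcb (difference 0.112) and Adar (0.126). Rac2 was closest to Sesn2 (0.0777) and Nfkb2 (0.105), and Ncf1 to Foxk1 and Litaf (0.131). Ncf4 was closest to Pdcd1 (0.0733) and Cfap97 (0.112), Cyba to Vps33a (0.0306) and Cog1 (0.0657), Sod1 to Zfx (0.0504) and Elp2 (0.0674), and Sod3 to Bicc1 (0.0445) and an immunoglobulin kappa variable gene (0.0738).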

How the data were processed

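Each sample is 1 dual-colour array. The authors deposited a log2 ratio of the channels per probe, as judged from signs and range. The sources used here give neither its background correction, normalization nor direction, and no scanner intensities were used. Each column has a median of 0, and ratios end at 100-fold. Exact zeros (9.56% to 12.9% of an array) were taken as missing. Ratios were turned to treated over untreated by the dyes in the labels, after which arrays of opposite orientation correlated at 0.585 to 0.831 over probes. Singly annotated probes of a gene were averaged where they had a ratio on all 6 arrays. The 3 set means were tested against 0 with limma 3.58.1 (R 4.3.3; lmFit and eBayes, two-sided tests), and p-values were adjusted by Benjamini-Hochberg over 9607 genes. Dye effects came from a 6-array model. The number of arrays limits precision. The fit was tested on simulated data.

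The members, lists, motifs and tests were chosen with earlier results of these data known. The text names all members and Rac1, and in each other list the 2 largest called rises and falls; other list genes, the interval genes and all motifs were chosen after values were seen. Alternatives changed the treatment of sets, zeros, probes, scaling, centring, variance and dye, or left out a set. Figures and motif searches used Python 3.11.15.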

Additional observations from a re-analysis of the deposited data

Results flagged for a closer look

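Probe 1180 of Ncf4 had opposite signs in the 2 dye orientations on every array, with a difference of -1.16 between the means with treated RNA in Cy5 and in Cy3. In limma's dye model this difference had an adjusted p of 0.086, and the other probe of the gene, 14118, gave 0.624. The part of the dyes in the call of Ncf4 was not tested beyond these values.

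Cybb gave a signal outside the tested data, a mean log2 ratio of 1.95 over the 2 arrays of set 2. Probe 7448 of Ncf1, which was left out for want of a ratio in set 1, stood at 0.64 over the other 2 sets.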

How the results depend on the processing

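Sod2 and Rac2 rose past the threshold under all 15 alternatives, and Cyba passed under none of them. Keeping exact zeros as ratios left 3 members up, 0 down and 903 genes down in place of 1400. That setting, called missing ratios taken as 1 above, raised the genes tested from 9607 to 10698. The ratios of Sod1, Akt1, Noxo1, Cat, Prkca, Atp7b and Hif1a stayed the same under it, and only their adjusted p-values moved. Treated RNA in Cy5 alone gave 0 members down and in Cy3 alone 2, and Sod3 changed sign to 0.23 with treated RNA in Cy5 alone. Without 1 set the members down were 0 in each case, the members up 3 to 4, and the genes down 951 to 1411. Deviations of same-numbered arrays correlated at 0.219, 0.0789 and 0.57, and 4 of 6 arrays matched their own number best, so the numbers are not shown to pair the arrays. With the set as a random replicate block 4 members rose and 1 fell, and 1653 genes rose and 1435 fell. With no replicate block, 1909 genes rose and 1740 fell, and the members' counts were again 4 and 1. Of 105 recomputed member ratios 95 kept their direction and their side of the threshold. Ratios carry no brightness, so the effect of dim probes was not assessed.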
